A study of Mus musculus with 16 samples.

Results

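Spi1 (PU.1) is an ETS-family transcription factor that binds purine-rich DNA around a GGAA core and is required for myeloid and B-lymphoid development. Bcl11a is a zinc finger repressor known for silencing fetal globin genes and for its part in B-cell and stem cell development. The regions described here carried a Spi1 peak in all 10 Spi1 libraries of the series and no reproducible Bcl11a peak. They were selected on peak presence alone: peaks on chromosomes 1 to 19, X and Y were merged at 1 bp of overlap within each factor, a Spi1 region had to have a peak in every one of the 10 lists, and it could share no base with a Bcl11a region found in at least 2 of the 6 Bcl11a lists. This left 743 of 1495 constant Spi1 regions, and of 31443 merged Spi1 regions in all. The other 752 constant regions overlapped a Bcl11a region. Presence in the Spi1 lists and absence from the Bcl11a lists are therefore properties of the choice and not findings.

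The study asked how Bcl11a acts in MPP3 cells, myeloid-biased multipotent progenitors sorted from mouse bone marrow. In CUT&Tag an antibody brings a transposase to the bound factor, and the enzyme cuts and tags the DNA beside it. WT-iMOS mice gave 3 T1 and 3 T2 libraries for each of the 2 factors. KO-iMOS mice gave 2 T1 and 2 T2 libraries for Spi1 alone among the files used here, and every title carries 3m. The labels explain none of iMOS, T1, T2 and 3m, and do not say which gene or which cells of a KO-iMOS mouse were altered or whether replicates came from separate animals, so p-values measure only the spread between these libraries. Peak names do not follow the genotype labels in an obvious way: those of the lists labelled KO-iMOS T1 begin with PWT, those of KO-iMOS T2 with PKO, those of WT-iMOS T1 with PWG and those of WT-iMOS T2 with PMG. Genotype results are for this reason also given within T1 and within T2, and T results within each genotype.

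The files are peak lists without read counts, so the depth of a library is unknown. The Spi1 lists held 5068 to 12261 peaks in WT-iMOS and 6372 to 20241 in KO-iMOS, and the Bcl11a lists 2719 to 7382. The narrowest peak of a list was 202 to 220 bp in the WT-iMOS Spi1 lists and 250 to 321 bp in the KO-iMOS lists, and the median width 338 to 399 bp against 444 to 493 bp. List length and peak width therefore differ between the genotypes, and their part in the results was not tested. At the gene for Spi1 itself (gene body and 10 kb on either side) there was 1 constant region, which overlapped Bcl11a, and none of the 743. At Bcl11a there was no constant region of either kind. Peak calls hold no expression, so the MPP3 label could not be checked against marker transcripts.

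Sequence was at hand only for promoter windows, which run from 250 bases before to 50 after an annotated gene start (RefSeq, GRCm38.p6, the assembly that mm10 names). A region's summit was the median of its summits over the 10 libraries. The summits of 82 of the 743 regions lay in 95 such windows, of 93 genes. A PU.1-like word, GAGGAAGT or AGAGGAAG on either strand (they overlap in AGAGGAAGT), occurred in 31 of these 95 windows, or 32.6%. It occurred in 23 of the 115 windows that held the summit of a constant region with Bcl11a, in 9.76% of the 2491 windows with the summit of any other Spi1 region, and in 6.50% of all 21262 windows. In the 31 windows the median distance from summit to word was 31 bp, and in 21 of them it was at most 50 bp. Such a match is a run of letters, not a measured site.

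The stretches that follow are the 150 bases before an annotated start of genes whose windows held a summit of one of the regions, 5′ to 3′ on the strand of the gene, with PU.1-like words in capitals. Grb2, Fcgr1, Pirb, Cd300lf and Rps3 are the named genes with such a window; Cd72, Dock2, Pira1 and Gm15448 were added after their values were seen, the first pair as immune genes with the word and the last pair to compare Pirb with its neighbours.
Grb2, an adaptor of receptor tyrosine kinases, at a start inside the gene, chr11:115699535-115699684, minus strand: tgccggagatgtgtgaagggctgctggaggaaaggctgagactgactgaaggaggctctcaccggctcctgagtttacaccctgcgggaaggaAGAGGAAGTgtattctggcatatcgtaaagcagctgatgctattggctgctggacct
Cd72, an inhibitory B-cell coreceptor, chr4:43454627-43454776, minus strand: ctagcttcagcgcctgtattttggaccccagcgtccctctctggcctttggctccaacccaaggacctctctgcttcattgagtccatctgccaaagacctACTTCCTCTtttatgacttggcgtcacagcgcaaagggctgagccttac
Fcgr1, the high-affinity IgG receptor, chr3:96293970-96294119, minus strand: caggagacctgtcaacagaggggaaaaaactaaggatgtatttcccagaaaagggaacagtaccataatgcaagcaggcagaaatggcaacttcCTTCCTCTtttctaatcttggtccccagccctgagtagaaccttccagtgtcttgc
Cd300lf, an inhibitory receptor of myeloid cells, at a start inside the gene, which also overlaps Rab37, chr11:115133993-115134142, minus strand: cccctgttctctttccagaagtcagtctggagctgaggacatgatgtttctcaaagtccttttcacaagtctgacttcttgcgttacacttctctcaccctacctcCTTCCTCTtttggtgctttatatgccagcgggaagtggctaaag
Dock2, a Rac activator of blood cells, chr11:34783906-34784055, minus strand: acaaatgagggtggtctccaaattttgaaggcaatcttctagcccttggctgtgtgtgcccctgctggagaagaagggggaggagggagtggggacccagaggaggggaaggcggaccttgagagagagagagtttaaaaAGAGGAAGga
Pirb, an inhibitory paired immunoglobulin-like receptor, chr7:3720383-3720532, minus strand: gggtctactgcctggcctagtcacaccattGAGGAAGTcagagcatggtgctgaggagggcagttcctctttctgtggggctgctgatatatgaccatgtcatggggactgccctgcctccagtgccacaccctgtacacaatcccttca
Pira1, an activating member of the same family, chr7:3739918-3740067, minus strand: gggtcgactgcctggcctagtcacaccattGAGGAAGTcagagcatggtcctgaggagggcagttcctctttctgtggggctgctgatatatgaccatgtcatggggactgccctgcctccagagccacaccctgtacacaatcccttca
Gm15448, a gene farther along the same cluster, chr7:3825761-3825910, minus strand: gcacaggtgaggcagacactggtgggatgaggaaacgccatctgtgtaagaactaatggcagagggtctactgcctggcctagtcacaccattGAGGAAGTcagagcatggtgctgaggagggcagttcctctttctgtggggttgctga
Rps3, a protein of the small ribosomal subunit, shown because it lacks the word, chr7:99483710-99483859, minus strand: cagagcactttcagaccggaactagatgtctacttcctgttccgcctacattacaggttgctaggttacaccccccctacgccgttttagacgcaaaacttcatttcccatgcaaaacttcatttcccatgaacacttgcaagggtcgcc

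In the sequences with a word, its distance from the Spi1 summit was 6 bp at Fcgr1, 14 bp at Grb2 and at Gm15448, 18 bp at Pira1, 21 bp at Cd300lf, 28 bp at Cd72, 35 bp at Dock2 and 86 bp at Pirb. The Pirb and Pira1 stretches were identical at 147 of 150 bases, and Pirb and Gm15448 shared an unbroken run of 80 bases. Reads from these copies can be split or misplaced by alignment, so the 3 Spi1 regions at the Pir cluster are uncertain as separate regions.

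Among the other words searched on both strands, the GGAA core was in all 95 windows with a summit of the regions, but also in 95.7% of all windows. TGTGGT, the RUNX word, was in 8.42% of the 95 windows against 15.0% of all windows, AGATAA, the word of Gata1 and its relatives, in 6.32% against 9.65%, TGACTCA (AP-1) in 1.05% against 4.66%, and TTGCGCAA or TTGCACAA (C/EBP) in 3.16% against 1.20%, that is in 3 windows. The mean GC content was 58.6% in the 95 windows, 61.6% in those with the summit of a constant region with Bcl11a, 62.6% in those of other Spi1 regions and 56.2% in all. The part of GC content in these shares was not tested.

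**Figure D1:**
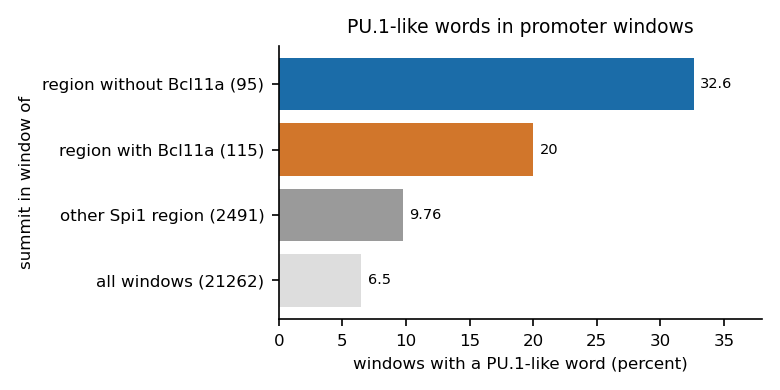
Percentage of promoter windows of 300 bases that hold a PU.1-like word, for windows with the summit of a constant Spi1 region without Bcl11a, of one with Bcl11a, of any other Spi1 region, and for all windows (number of windows in brackets). The bars fall from 32.6% to 6.50% in that order; no error is drawn because each bar is a full count.

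Most of the 743 regions lay away from gene boundaries. The annotation gives gene starts and ends but no exons, so exons, introns and UTRs are not told apart. The summit was within 1 kb of the start or end of a protein-coding gene in 189 regions (25.4%), inside a gene but farther than 1 kb from its ends in 286 (38.5%), outside a gene but within 10 kb in 85 (11.4%) and farther out in 183 (24.6%). The constant regions with Bcl11a were at a gene boundary in 37.9% and deep inside a gene in 30.1%. The 18034 Spi1 regions found in 2 to 9 lists had shares of 27.8% and 37.1%, near those of the regions without Bcl11a. Merged width had a median of 870 bp, against 965 bp for the constant regions with Bcl11a and 610 bp for the Spi1 regions of 2 to 9 lists. The summits of the 10 libraries spanned a median of 174 bp within a region without Bcl11a and 211 bp within one with it. In 724 of the 743 regions every library had a single peak.

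Of the 743 regions, 505 had no Bcl11a peak in any library and 238 overlapped only Bcl11a regions that were each found in 1 of the 6 lists. These overlaps came mostly from the longest Bcl11a lists: T1 replicate 3 gave 151, T1 replicate 2 gave 70 and T1 replicate 1 gave 10, while the T2 lists gave 2, 3 and 6. The counts by list exceed 238 together, because a few regions overlapped separate Bcl11a regions of different lists. The list number of a region is that of the overlapping Bcl11a region found in the most lists. Just outside the threshold stood 221 constant regions with a list number of exactly 2. Strength hardly separated the regions on either side: the mean percentile of the deposited −log10 p within the full list of each library had a median of 81.7 with 0 Bcl11a lists, 83.1 with 1 and 81.3 with 2. The leading regions with 1 Bcl11a list were nearest to Rps19, Cers6, Trib1, Cdk19 and Cass4, with mean percentiles of 96.9 to 98.2. The leading ones with 2 lists were nearest to Zfp869, Rmnd5b, Slc4a1ap, Rasip1 and Rab39b, with 96.5 to 97.8. On the Spi1 side, 527 regions without Bcl11a had a peak in 9 of the 10 lists, with a median percentile of 69.3 against 82.1 for the 743. The list without a peak was WT-iMOS T2 replicate 3 in 184 of them, WT-iMOS T1 replicate 3 in 139 and KO-iMOS T2 replicate 2 in 120, which are among the shorter lists. The share of Spi1 regions without Bcl11a fell from 94.4% of those in 1 Spi1 list to 49.7% of those in all 10.

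The nearest Bcl11a region was usually far off, at a median of 67737 bp. It was within 1 kb of 6 of the 743 regions and within 10 kb of 88, and more than 100 kb away from 300. The region inside Fli1, which encodes an ETS factor of blood and endothelium, came within 220 bp of one.

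The order of strength between constant regions with and without Bcl11a depended on the deposited value used. Strength was ranked among the same 1495 regions in each library, with 0 the weakest and 100 the strongest. By −log10 p, the regions without Bcl11a had a median rank of 45.1 to 47.1 in the 6 WT-iMOS libraries, and those with Bcl11a 53.1 to 56.9; the groups do not overlap. In KO-iMOS the medians were 48.3 to 50.4 and 49.3 to 51.6, and the regions without Bcl11a were the higher in 2 of 4 libraries. By fold enrichment over local background they were the higher in 8 of 10 libraries, with medians of 49.3 to 53.8 against 45.9 to 51.1. The median fold enrichment of the regions without Bcl11a was 8.59, 7.24 and 6.46 in WT-iMOS T1, 10.1, 8.31 and 7.02 in WT-iMOS T2, 10.02 and 9.64 in KO-iMOS T1, and 9.38 and 7.66 in KO-iMOS T2. No direction is drawn from these medians.

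**Figure D2:**
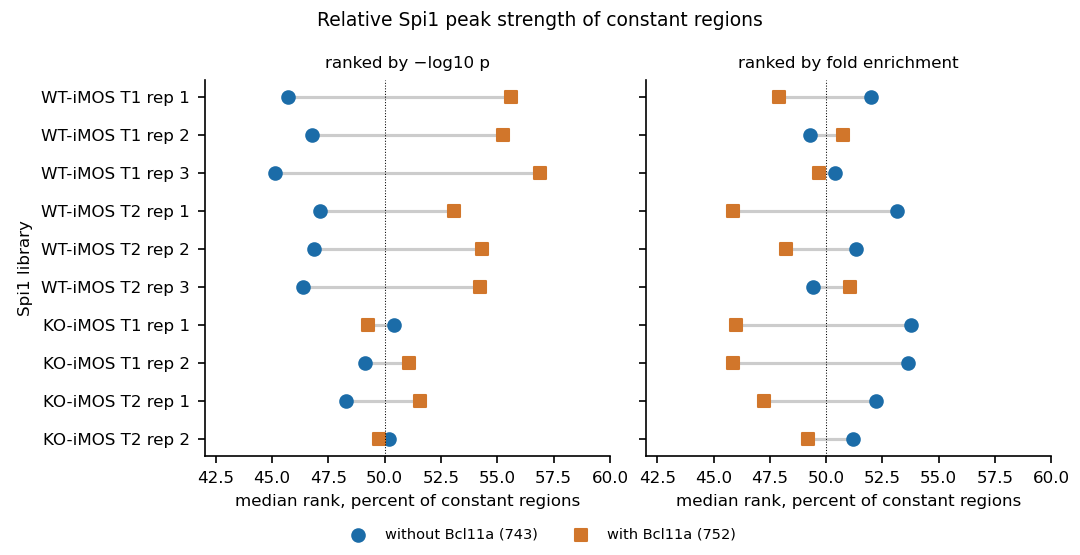
Median rank (percent of the 1495 constant regions; 100 is strongest) of regions without Bcl11a (circles, 743) and with Bcl11a (squares, 752) in each of the 10 Spi1 libraries, by −log10 p on the left and by fold enrichment on the right. On the left all 6 WT-iMOS libraries put the circles lower; on the right 8 of 10 libraries put them higher.

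The mean percentile of the 20 strongest of the 743 regions in the full lists ran from 98.2 down to 96.7. These 20 were nearest to Slc7a1, Rps19, Cers6, Atp1b3, Enpp3, Trib1, Meis1, Nckap1l, Cyria, Mef2c, Cdk19, Zfp971, Cpsf2, Ahctf1, Cass4, Cep19, Grb2, Lifr, Adgrg6 and Arhgdib. A nearest gene is a position and not a known target. The region inside Slc7a1 (chr5:148379357-148380113), which encodes a cationic amino acid transporter, was at rank 92.0 to 95.9 (median 94.1) in WT-iMOS and at 98.6, 97.8, 98.3 and 98.4 in KO-iMOS. The region 318 bp from Rps19 (chr7:24883921-24884816), a ribosomal protein gene mutated in Diamond-Blackfan anaemia, was at 91.4 to 95.5 (median 94.1) in WT-iMOS and at 97.6, 93.3, 96.8 and 99.1 in KO-iMOS. Both were near the top in all 10 libraries.

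The nearest genes of 3 of these 20 regions are known regulators of blood cells. The region inside Meis1 (chr11:18924637-18925582), a homeobox factor of stem cells, was at 87.3 to 93.5 (median 90.03) in WT-iMOS and at 96.6, 95.3, 94.9 and 94.1 in KO-iMOS. That inside Mef2c (chr13:83571836-83572725), a MADS-box factor of lymphoid and myeloid progenitors, was at 84.9 to 91.1 (median 89.2) and at 97.1, 94.8, 96.2 and 95.5. The region 64357 bp from Trib1 (chr15:59721002-59721947), whose product directs C/EBPα for degradation, was at 85.0 to 91.8 (median 91.5) and at 98.0, 96.9, 97.2 and 99.2. In these 3 regions the KO-iMOS libraries were all above the WT-iMOS libraries, but by only 4.87 to 7.45 points, and none passed the test (limma, adjusted p of 0.182, 0.0842 and 0.0759). The actin regulators Nckap1l, which encodes the Hem1 subunit of the WAVE complex of blood cells, and Cyria, which encodes a Rac-binding inhibitor of that complex, had regions at a mean percentile of 97.3 and 97.1. Arhgdib had one at 96.7. Among the 20 strongest regions, that 38706 bp from Ahctf1, a nucleoporin gene, passed the test between genotypes, at 90.4 to 93.5 (median 92.0) in WT-iMOS and at 77.1, 72.4, 85.9 and 90.7 in KO-iMOS (difference -10.6 ± 2.85, SE, adjusted p = 0.0248); the groups overlap.

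Genes within 10 kb of one of the 743 regions numbered 745 of 21883 protein-coding genes, or 3.4%, and 179 regions were at no gene. A constant region with Bcl11a was at 3.90% of genes. Gene lists for blood lineages and functions were set against these shares as descriptions. The lists were chosen with earlier results of these data known, and the part of that choice in their shares was not tested. A gene can have both kinds of region, as 68 of all genes did. Among the list genes, Syk, Cd74, Rara and Notch1 had both kinds, so both counts of a list can include the same gene. Immune receptor kinases and adaptors had a region without Bcl11a at 9 of 38 genes (23.7%) and one with Bcl11a at 7 (18.4%). The 9 were Syk, Plcg2, Inpp5d, Ptprc, Grb2, Dock2, Coro1a, Arhgdib and Nfatc1. Antigen presentation genes had one at 4 of 18 (22.2%), namely H2-Aa, H2-Oa, Cd74 and Zbtb46, and the same number with Bcl11a. Integrin, adhesion and chemokine receptor genes had one at 5 of 30 (16.7%), namely Itgam, Itgb7, Selplg, Icam1 and Cd44.

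Fc, lectin and paired receptor genes stood at 6 of 35 (17.1%) without Bcl11a, namely Fcgr1, Clec12a, Cd300lf, Pirb, Cd33 and Ly86, and at 1 (2.86%) with it. Cytosolic ribosome and translation genes stood at 4 of 32 (12.5%), namely Rps3, Rps9, Rps19 and Eif5a, and at 0 with Bcl11a. The Toll-like receptor and NF-κB list had the larger number on the other side, with 1 of 36 genes (Nfkbie) without Bcl11a and 6 with it. Myeloid transcription factor genes had 6 of 38 (15.8%) without Bcl11a, namely Irf2, Rara, Etv6, Fli1, Mef2c and Ikzf1, and 10 (26.3%) with it. The counts of these lists are small, and differences between them were not tested.

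The remaining lists had 3 genes or fewer with a region without Bcl11a. Stem and progenitor factors had 3 of 28 (10.7%; Meis1, Flt3 and Nr4a1) and 2 with Bcl11a. Cytokine receptors and signalling had 3 of 40 (7.5%; Csf2rb, Il10ra and Tgfbr2) and 7 (17.5%) with Bcl11a. Chromatin and DNA methylation had 2 of 32 (6.25%; Tet2 and Tet3) and 5 (15.6%) with Bcl11a. The megakaryocyte and platelet list had 2 of 20 (Gp1ba and Plek) and the same number with Bcl11a. The lymphoid list had 2 of 37 (Notch1 and Bach2) and 1 with Bcl11a, which was Notch1 again. The erythroid (Tmcc2), mast cell, basophil and eosinophil (Cd200r3), interferon-stimulated (Trim25), granule and oxidase (Cyba), lysosome (Npc1) and cell cycle (Casp8) lists had 1 gene each. Of the 32 genes that mark tissues other than blood, 0 had a constant Spi1 region of either kind, against 3.40% and 3.90% of all genes. In so short a list a count of 0 is near these shares.

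**Figure D3:**
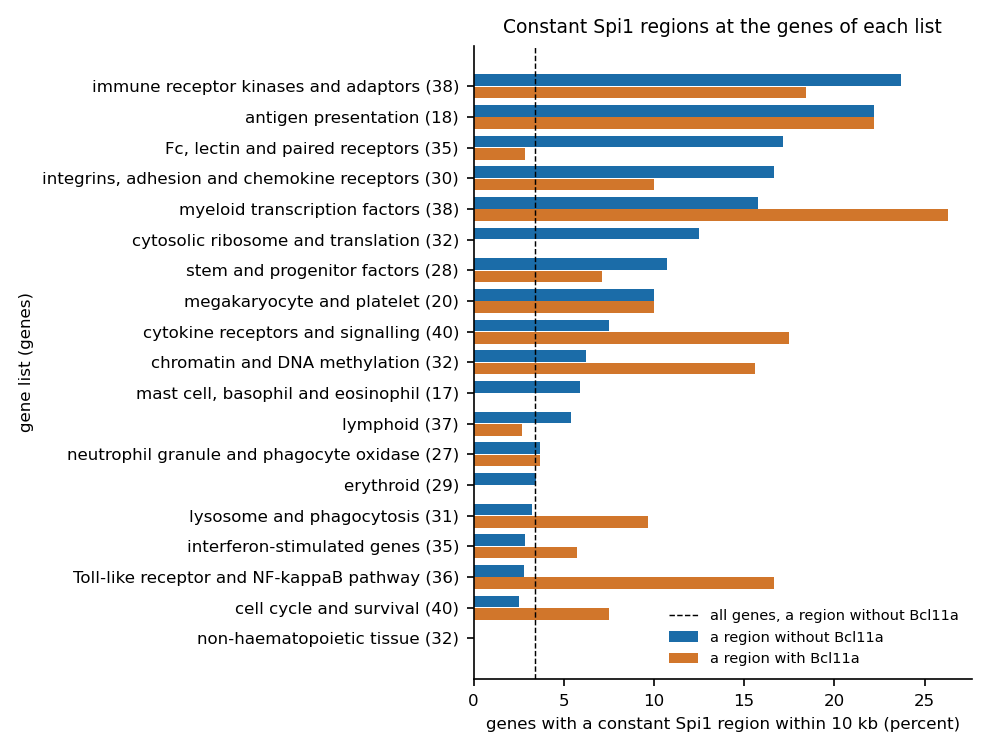
Percentage of the genes of each list with a constant Spi1 region within 10 kb, without Bcl11a (upper bar) and with Bcl11a (lower bar); the number of genes is in brackets and the dashed line is the 3.4% of all genes with a region without Bcl11a. Immune receptor kinases and adaptors lead at 23.7%. The list of tissues other than blood is at 0, which in so short a list is near the share of all genes. The lists were chosen with earlier results of these data known.

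The labelled genotype comparison asks whether a region's Spi1 strength, relative to the other constant regions, differed between KO-iMOS and WT-iMOS. Because ranks are relative, a higher rank does not show more Spi1 on the DNA. At 150 of the 743 regions the rank was higher in KO-iMOS and at 108 it was lower (limma over all 1495 constant regions, adjusted p under 0.05). Over all constant regions 16.7% were higher and 16.3% lower, against 20.2% and 14.5% of the 743. The median difference was 2.83 points for the 743 and -1.38 points for the constant regions with Bcl11a, and these are tied, since both sets share 1 scale of ranks. By fold enrichment the medians were 0.814 and -1.76. The 6 WT-iMOS and 4 KO-iMOS libraries did not overlap at 72 of the 150, at 57 of the 108 and at 13 of the 485 regions not called. The calls and the overlap use the same ranks, so this separation is tied to the calls. The share without overlap over all constant regions was not computed. Ranking by fold enrichment gave 77 higher and 62 lower, and a replicate block gave 98 and 68 in the same order. Of the 258 called regions, 120 also passed by fold enrichment and 158 also passed with the block. The count of 258 fell to 154 without KO-iMOS T1 replicate 1 and to 162 without KO-iMOS T1 replicate 2.

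Within T1 alone, 79 of the 743 regions were higher in KO-iMOS and 56 lower, against 8.96% and 9.03% of all constant regions. Within T2 alone, 87 were higher and 72 lower, against 10.2% and 10.6%. These comparisons compare different libraries, but the spread of each region was estimated once from all 10 libraries, so they are not independent. In both, 64 regions passed (47.4% of those of T1 and 40.3% of those of T2), 63 of them in the same direction. The share passing in both over all constant regions was not computed. The 135 calls of T1 fell to 38 without KO-iMOS T1 replicate 1, to 56 without KO-iMOS T1 replicate 2 and to 39 by fold enrichment. The 159 calls of T2 fell to 56 without KO-iMOS T2 replicate 2, to 105 without WT-iMOS T2 replicate 3 and to 67 by fold enrichment. Where 1 KO-iMOS library was left in a T, it was assumed to vary like the other groups.

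**Figure D4:**
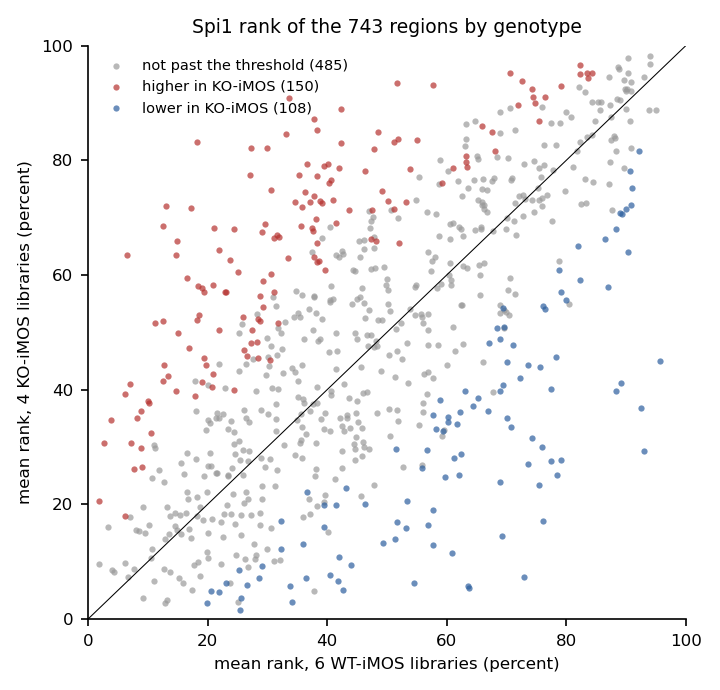
Mean rank of each of the 743 regions in the 6 WT-iMOS libraries (horizontal) and the 4 KO-iMOS libraries (vertical), in percent of the 1495 constant regions; 1 point per region, with the line of equal rank. The 150 regions past the threshold above the line and 108 below it lie on both sides at most levels, and the 485 others lie nearer the line.

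The regions with the widest rise in KO-iMOS were near genes of varied roles. The region inside Upb1 (chr10:75429154-75430105), which encodes an enzyme of pyrimidine breakdown, was at rank 3.34 to 33.7 (median 19.0) in WT-iMOS and at 85.3, 88.8, 73.5 and 84.7 in KO-iMOS, a difference of 64.9 ± 3.99 (SE, adjusted p = 4.27e-05). The region 480 bp from Ctla4 (chr1:60915933-60916718), an inhibitory receptor gene of T cells, was at 1.91 to 28.6 (median 11.04) and at 75.3, 74.9, 64.6 and 73.3, a difference of 59.0 ± 5.77 (SE, adjusted p = 0.000364). Among the constant regions, these 2 ranked low in every WT-iMOS library and high in every KO-iMOS library. Inside Tanc1 (chr2:59642486-59643395), a synaptic scaffold gene, ranks were 7.46 to 21.8 (median 15.2) and 65.8, 72.9, 64.5 and 60.2. The region 197694 bp from Mki67, the gene of a proliferation marker, was at 8.73 to 48.1 (median 41.8) and at 91.5, 88.9, 89.9 and 93.1. Others among the widest rises, near Lefty1, Gcg, Tmem266, Ndc80 and Scarb2, had differences of 51.4 to 57.0 points, and libraries overlapped between genotypes at Gcg alone.

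The widest falls included regions nearest to Ikzf1 and Grb2. The second region inside Ikzf1 (chr11:11729986-11730742), which encodes the lymphoid factor Ikaros, was at rank 36.5 to 87.6 (median 63.5) in WT-iMOS and at 11.4, 1.84, 2.04 and 7.79 in KO-iMOS, a difference of -57.7 ± 3.90 (SE, adjusted p = 6.74e-05). Its WT-iMOS values were 87.6, 79.6 and 83.6 in T1 and 46.4, 47.4 and 36.5 in T2. The other region inside Ikzf1 (chr11:11762897-11763683), 1 of the strong ones, was at 84.7 to 93.3 (median 90.9) and at 81.4, 80.2, 70.5 and 82.7 (difference -10.9, adjusted p = 0.0543). A region 4152 bp from Grb2 (chr11:115712409-115713062) was at 67.5 to 86.0 (median 79.0) in WT-iMOS and at 19.3, 44.2, 32.6 and 4.51 in KO-iMOS, a difference of -53.2 ± 7.13 (SE, adjusted p = 0.00151). The region at the internal Grb2 start shown above, 9024 bp from the nearer end of the gene, did not pass the test, with ranks of 83.1 to 93.4 (median 90.6) and 96.4, 94.9, 95.6 and 83.0 (adjusted p = 0.586). Grb2 and Rab8a had 3 of the 743 regions each, the highest number at any gene.

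The largest fall was 12047 bp from Rab10 (chr12:3235045-3235933), a gene of vesicle transport, where ranks were 63.7 to 82.4 (median 72.6) in WT-iMOS and 4.78, 12.1, 10.2 and 2.04 in KO-iMOS (difference -65.6 ± 3.68, SE, adjusted p = 4.13e-05). Inside Ptpn3 (chr4:57198807-57199518), a protein tyrosine phosphatase gene, they were 90.3 to 95.02 (median 92.9) and 29.5, 52.9, 20.9 and 13.98. The others, near Zfp664, Rsph3b, Pisd, Unc5cl, Cfap57 and Cfap43, fell by 51.4 to 59.0 points, and in none of the 10 did the genotypes overlap. All 19 regions named as the widest rises and falls kept their direction and passed the threshold by fold enrichment, with a replicate block, with genotype as the only term, among regions with 1 peak per library and without any 1 library.

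**Figure D5:**
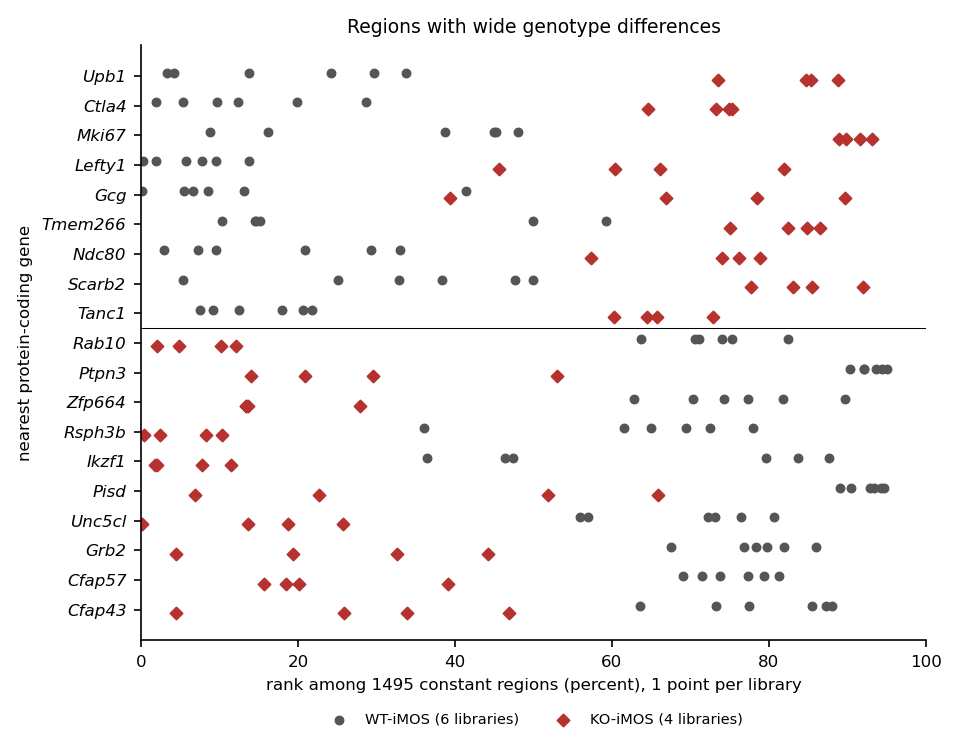
Rank of 9 regions among the widest rises and of the 10 widest falls (above and below the line), labelled by nearest gene, in each WT-iMOS library (circles, 6) and KO-iMOS library (diamonds, 4); 100 is the strongest of the 1495 constant regions. At every region but that near Gcg the circles and diamonds are separate.

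At the genes of the lists, 12 regions lay at immune receptor kinases and adaptors, of which 3 were higher in KO-iMOS and 1 lower. Over the 743 regions 20.2% were higher and 14.5% lower, and over all constant regions 16.7% and 16.3%. Counts within single lists are small and were not tested against these shares. Within 325 bp of a boundary of Ptprc (chr1:138174950-138175817), which encodes the phosphatase CD45, ranks were 16.9 to 25.8 (median 20.7) in WT-iMOS and 54.0, 52.7, 51.1 and 74.8 in KO-iMOS (difference 37.3 ± 4.84, SE, adjusted p = 0.00132). At the Dock2 promoter (chr11:34783084-34784601) they were 17.3 to 51.1 (median 39.8) and 64.3, 65.3, 70.4 and 74.3 (difference 33.0 ± 6.73, SE, adjusted p = 0.00833). The genotypes did not overlap at these 2 regions. The difference inside Nfatc1, a calcium-responsive factor gene, was 12.7 ± 3.71 (SE, adjusted p = 0.0331), and it passed in neither T alone. The lower region was the one 4152 bp from Grb2 described above. The regions at Syk, Plcg2, Coro1a and Inpp5d did not pass, with differences of 3.05, 0.680, 5.51 and -10.6.

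Of the 8 regions at Fc, lectin and paired receptor genes, 1 was higher and 1 lower, against 20.2% and 14.5% of the 743. The higher one was inside Ly86, the gene of the MD-1 partner of the receptor RP105, at 11.1 to 58.6 (median 40.6) in WT-iMOS and at 69.9, 52.3, 59.1 and 80.6 in KO-iMOS (difference 27.3 ± 5.90, adjusted p = 0.0105); the genotypes overlap. Its difference was 5.25 within T1 (adjusted p = 0.711) and 49.3 within T2 (adjusted p = 0.00766). The lower one lies within 10 kb of Pirb but nearer to Rps9 and is given with that gene. At the Fcgr1 promoter ranks were 46.9 to 84.2 (median 73.3) in WT-iMOS and 80.4, 92.3, 91.7 and 91.7 in KO-iMOS (difference 18.5 ± 6.27, adjusted p = 0.0533), and at the internal Cd300lf start 20.5 to 83.8 (median 68.1) and 94.8, 86.3, 79.0 and 85.2 (difference 23.1 ± 11.4, adjusted p = 0.148). Neither of these passed, and both overlap between genotypes.

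Of the 743 regions, 6 had a ribosomal protein gene as nearest gene; Rps3, Rps9 and Rps19 are in the list above, and Rps26, Rpl14 and Rpl10 were added after their values were seen. At the Rps3 promoter ranks were 60.03 to 84.4 (median 72.3) in WT-iMOS and 30.0, 48.2, 14.4 and 41.1 in KO-iMOS (difference -37.3 ± 6.81, adjusted p = 0.00508), with no overlap. At Rps9 they were 66.9 to 82.0 (median 71.0) and 73.7, 44.8, 14.4 and 44.1 (difference -29.4 ± 7.74, adjusted p = 0.0235), with overlap. The region 262 bp from Rps26 was at 68.9, 78.8 and 65.1 in WT-iMOS T1, at 59.4, 36.1 and 58.5 in WT-iMOS T2 and at 21.6, 17.5, 19.6 and 53.6 in KO-iMOS (difference -33.1, adjusted p = 0.0147), also with overlap. These 3 of the 6 regions were lower in KO-iMOS, against 14.5% of all 743 and 16.3% of all constant regions. The count includes Rps26, which was added after its values were seen, and it was not tested against these shares. Within a T, Rps3 passed in both, Rps9 in T2 alone (-43.4, against -15.3 in T1) and Rps26 in T1 alone (-51.4, against -14.7 in T2). The regions at Rpl14, Rpl10 and Rps19 did not pass, with differences of -24.2, 18.2 and 2.74 points (adjusted p of 0.104, 0.245 and 0.483).

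Of the myeloid transcription factor genes, the Ikzf1 region above was lower in KO-iMOS in both T, by 77.0 points in T1 and 38.5 in T2. The region inside Fli1 was at 80.1, 72.2 and 78.7 in WT-iMOS T1 and at 27.3 and 40.2 in KO-iMOS T1, but at 40.1, 53.2 and 54.0 in WT-iMOS T2 and at 47.4 and 44.4 in KO-iMOS T2. Its pooled difference of -23.2 (SE 4.38, adjusted p = 0.00574) was -43.3 within T1 (adjusted p = 0.00466) and -3.19 within T2 (adjusted p = 0.757), with an interaction of 40.1 (adjusted p = 0.0618). A region within 10 kb of Rara, a retinoic acid receptor gene, lies inside Cdc6, a replication licensing gene. It was at 30.3, 14.7 and 32.9 in WT-iMOS T1, at 30.4, 20.2 and 18.3 in WT-iMOS T2, at 16.2 and 22.3 in KO-iMOS T1 and at 61.04 and 60.2 in KO-iMOS T2. The KO-iMOS T2 libraries alone were high. Its pooled difference of 15.5 ± 4.67 (adjusted p = 0.0365) was -6.76 within T1 (adjusted p = 0.520) and 37.7 within T2 (adjusted p = 0.00810), with an interaction of 44.4 (adjusted p = 0.0546). The regions at Mef2c, Etv6 and Irf2 did not pass.

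Among the other list genes past the threshold, the pooled differences were 28.6 points at Cd44, the adhesion receptor gene, 17.2 at Cd74, the invariant chain gene, 25.4 at Notch1, 27.4 at Bach2, a repressor gene of lymphoid cells, and 35.5 at Cd200r3. At these 5 regions KO-iMOS was higher within T1 and within T2, but Cd44 passed in neither T alone, Cd74, Notch1 and Bach2 passed in T2 and Cd200r3 in T1. The Cd44 and Cd74 ranks overlap between genotypes. The region at Gp1ba, a platelet receptor gene, lies inside Slc25a11 and differed by 19.8 points, with overlap and with neither T past the threshold alone. The region at Selplg, which encodes the selectin ligand PSGL-1, lies 406 bp from Coro1c. It differed by 20.1 points over all libraries, by 40.4 within T1 (adjusted p = 0.0210) and by -0.167 within T2 (adjusted p = 0.993). The region inside Plek, a platelet kinase substrate gene, differed by -24.9 points, by -46.4 within T1 (adjusted p = 0.0155) and by -3.36 within T2 (adjusted p = 0.846). The Selplg and Plek ranks overlap between genotypes, and their interactions did not pass (adjusted p of 0.180 and 0.175). Tet3, which encodes an enzyme that oxidises methylated cytosine, fell from 33.8 to 65.6 (median 55.7) in WT-iMOS to 7.06, 12.01, 0.702 and 5.18 in KO-iMOS (difference -48.3 ± 5.99, adjusted p = 0.00106) and passed within each T. Its relative Tet2 had ranks of 0.368 to 53.3 and 33.6, 8.13, 37.1 and 4.85 (difference 4.20 ± 10.3, adjusted p = 0.784). By fold enrichment the Cd74 difference turned to -0.596.

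Position and width of the called regions are given as descriptions. Of the 150 higher regions 36 lay within 1 kb of a gene boundary, as did 33 of the 108 lower ones and 120 of the 485 others. Bcl11a regions of 1 list alone were overlapped by 43, 41 and 154 of them. The lower regions had a median width of 795 bp against 881 bp and 876 bp.

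Between T2 and T1, averaged over genotypes, 11 of the 743 regions were higher in T2 and 13 lower, against 1.47% and 1.61% of all constant regions. Within WT-iMOS the numbers were 19 and 16 (background 2.34% and 1.61%), and within KO-iMOS 7 and 6 (background 0.87% in each direction). These shares are near those of all constant regions. The 35 calls within WT-iMOS fell to 8 with a replicate block, to 5 by fold enrichment, and to 12 to 17 without any 1 of WT-iMOS T1 replicate 1 or 2, the 3 WT-iMOS T2 replicates or the 2 KO-iMOS T1 replicates. The 13 within KO-iMOS fell to 7 with a replicate block or without KO-iMOS T1 replicate 1, to 2 without KO-iMOS T1 replicate 2, to 5 without KO-iMOS T2 replicate 2 and to 8 without WT-iMOS T2 replicate 2, and rose to 35 without KO-iMOS T2 replicate 1. By limma on fold enrichment ranks 0 passed within KO-iMOS (32 higher and 51 lower at an unadjusted p under 0.05). For the pooled difference, by limma on fold enrichment ranks 0 of the 743 passed, with 51 higher and 52 lower at an unadjusted p under 0.05, and 5 passed with a replicate block. The count of 24 fell to 3 without WT-iMOS T1 replicate 1, WT-iMOS T2 replicate 2 or KO-iMOS T1 replicate 2, to 5 without KO-iMOS T1 replicate 1, to 9 without WT-iMOS T2 replicate 1 or KO-iMOS T2 replicate 2, and to 13 without WT-iMOS T1 replicate 3. The region inside St3gal1 (chr15:67174106-67174993), a sialyltransferase gene, had T1 ranks of 34.8, 31.1 and 26.9 in WT-iMOS and 14.2 and 12.8 in KO-iMOS, and T2 ranks of 48.6, 47.1 and 61.2 and of 73.3 and 86.3 (difference 43.9 ± 4.34, SE, adjusted p = 0.00299). Every T2 library was above every T1 library. Inside Armc7 (chr11:115477384-115478421) T1 ranks were 85.1, 77.9 and 83.9 in WT-iMOS and 35.3 and 51.0 in KO-iMOS, and T2 ranks 37.6, 34.0 and 39.6 and 9.60 and 2.98 (difference -41.0 ± 4.06, SE, adjusted p = 0.00299). T2 was lower within each genotype.

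The other regions higher in T2 were nearest to Vsnl1, Ndufa10 (107647 bp away), Frmd4b, Ppt2, Ipcef1, Slc12a2, Kctd3, Mrln and Eya1 among the 10 widest, with differences of 25.9 to 38.4 points. Those lower were nearest to Fam234b, Sh2d1b1, Alox15, Zdhhc14, Abtb2, Maf, Esr1, Runx1 and Hspa9, from -39.9 to -26.0 points. The region nearest Runx1, a master regulator of blood stem cells, was 205752 bp from the gene, with T1 ranks of 57.2, 53.6 and 42.4 in WT-iMOS and 44.8 and 38.9 in KO-iMOS, and T2 ranks of 22.2, 15.3 and 21.9 and of 17.8 and 21.2. Every T1 library was above every T2 library. Inside Alox15, a lipoxygenase gene of eosinophils and macrophages, T1 ranks were 72.9, 67.7, 72.1, 68.3 and 46.0 and T2 ranks 36.4, 45.7, 58.9, 19.0 and 19.8, WT-iMOS first; the ranges overlap.

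The T difference itself depended on genotype at 14 of the 743 regions, 5 with a positive and 9 with a negative interaction, against 0.803% and 1.2% of all constant regions. By limma on fold enrichment ranks 0 passed (49 positive and 49 negative at an unadjusted p under 0.05). With a replicate block 0 passed (58 and 75 unadjusted), and without KO-iMOS T1 replicate 2 the count was also 0 (41 and 59 unadjusted). It rose to 23 without KO-iMOS T2 replicate 1, and fell to between 2 and 9 without any 1 of the others except WT-iMOS T1 replicate 1 (15). The region 10119 bp from Esr1 (chr10:4601184-4602419), the oestrogen receptor gene, was at 96.8, 95.8 and 95.5 in WT-iMOS T1, at 96.0, 94.5 and 95.2 in WT-iMOS T2, at 75.9 and 71.0 in KO-iMOS T1 and at 27.8 and 5.25 in KO-iMOS T2. It was steady in WT-iMOS, lower in KO-iMOS T1 and lowest in KO-iMOS T2. The region 147655 bp from Maf, a macrophage factor gene, was at 78.5, 70.0 and 87.6, then 79.9, 79.1 and 79.8, then 87.4 and 85.5, and then 41.8 and 13.2 in the same order. There the KO-iMOS T2 libraries alone were low. A second region at Fli1, 38824 bp outside the gene (chr9:32581973-32582581), was at 37.9, 40.1 and 48.9, then 77.7, 76.3 and 84.1, then 11.7 and 24.4, and then 3.71 and 6.19. Its rank was higher in T2 in WT-iMOS and lower in T2 in KO-iMOS, where the T difference did not pass alone (limma, adjusted p = 0.385). The difference of these differences was -50.1 ± 8.06 (SE, adjusted p = 0.0252).

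Hairpins of 19 microRNAs lay within 10 kb of 17 of the regions, and 2 hairpins were overlapped by one. The mature sequences of microRNAs known in blood cells or overlapped by a region that moved are given with the seed, bases 2 to 8, in capitals (RefSeq, GRCm38.p6).
miR-21a-5p: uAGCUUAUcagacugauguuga
miR-132-3p: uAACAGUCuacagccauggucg
miR-212-3p: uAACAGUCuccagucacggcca
miR-484: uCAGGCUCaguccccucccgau
The hairpins of miR-132-3p and miR-212-3p, which share a seed, were 8149 bp and 7855 bp from a region near Hic1, at a mean percentile of 85.0 (genotype difference 10.7, adjusted p = 0.0958). The Mir21a hairpin was 2421 bp from a region at Vmp1, at 55.8 (difference 1.08, adjusted p = 0.922). The Mir484 hairpin lay inside a region at Marf1 (chr16:14159039-14159982), at 87.4, whose rank fell by 42.6 points in KO-iMOS (adjusted p = 0.000731).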

How the data were processed

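CUT&Tag libraries of sorted MPP3 cells were grouped by the target, genotype label and T in their titles (16 libraries, 6 groups). The authors deposited 1 narrowPeak list per library; Bowtie2, SAMtools, MACS2 and mm10 are named without versions in the submitters' processing notes, and their settings, or any control sample, are not given in the sources used here. A deposited line holds a score, a fold enrichment (ratio), −log10 p, −log10 q and a summit offset, which are the authors' own values; −log10 q was above 2 in every line. The deposited score was not used. Lists carry no read counts, so depth and counting error are unknown. Of 131939 peaks, 130097 on assembled chromosomes were used, with no filter for regions known for artefact signal. At most 58 intervals were identical between any 2 lists.

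The members, gene lists and tests were chosen with earlier results of these data known. Python 3.11.15, pandas 2.3.3 and limma 3.58.1 were used. Ranks of −log10 p among the 1495 constant regions of each library were fitted with 4 group means (genotype by T), and p-values were adjusted by Benjamini-Hochberg over all 1495. Ranks are bounded, so differences at the very top are small by construction. On simulated data, 88 of 200 regions moved by 20 points were recovered for KO-iMOS against WT-iMOS over 1495 regions, with 7 false calls. The 7 do not measure the false calls among the genotype calls reported above, whose share was not tested. Same-numbered libraries did not deviate together (correlations of -0.12 to 0.104 over 13 pairs), so numbers were not taken as pairs. In a group of 2 libraries the deviations from the group mean mirror each other, so the 13 pairs are not independent checks. The value of -0.12 is for this reason the same in both KO-iMOS pairs. Genes came from RefSeq on GRCm38.p6 (592 of 595 list genes found). No genome sequence was used: the planned word search around every summit was replaced by promoter windows, which cover 17491 of 21883 genes and none on chromosome 18, and promoter classes by gene boundaries. Named regions were the 20 with the highest mean percentile, up to 4 genes per list, up to 10 per direction past the threshold in each contrast, and the 5 leading ones on either side of the Bcl11a threshold; 1 region that this rule names is not reported here.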

Additional observations from a re-analysis of the deposited data

Results flagged for a closer look

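In 47 checks of single libraries within a group of 4 or 6, 2 ranks lay far from the others of their genotype; chance flags about 1 in 20. At the region near Gcg, WT-iMOS T2 replicate 1 was at 41.4 and the other 5 WT-iMOS libraries were at 0.167 to 13.1. At the region near Zfp664, KO-iMOS T2 replicate 2 was at 27.9 and the other 3 KO-iMOS libraries were at 13.4 to 13.7.

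The difference between T2 and T1 depended on genotype at 14 regions by the interaction term of limma. The term, the T2 minus T1 difference in KO-iMOS less that in WT-iMOS, was 74.2 points inside Dgkz, 61.2 inside Plac8, 54.2 near Plekho2 and 49.8 inside Cd276, where ranks were lower in T2 in WT-iMOS (-51.3, -28.7, -23.1 and -23.5) and higher in T2 in KO-iMOS (22.9, 32.5, 31.1 and 26.3). Inside St3gal1 it was 44.9, with T2 higher in both genotypes (21.4 and 66.3). The term was -76.9 inside Bcl9, -65.6 inside Csk, -63.0 near Plekho1, -60.5 near Pira1, -59.8 near Maf, -52.9 near Mcur1, -50.1 near Fli1 and -46.6 at Snx20, where the difference was positive in WT-iMOS (0.925 near Maf, 8.54 to 52.2 at the others) and negative in KO-iMOS (-58.9 to -8.29). Near Esr1 it was -56.2, from -0.780 in WT-iMOS and -56.9 in KO-iMOS. The region near Pira1 is 1 of those at the near-identical copies of the Pir cluster. The KO-iMOS part of each rests on 2 libraries per T. Adjusted p-values of the interaction over the 14 regions ran from 0.0171 to 0.0492. Within KO-iMOS alone the T difference passed at Plekho2, St3gal1, Maf, Esr1 and Mcur1, with adjusted p of 0.0626 to 0.706 (limma) at the others. Within WT-iMOS alone it passed at Dgkz, Plac8, Plekho2, Cd276, Plekho1, Pira1 and Fli1. Both passed only at Plekho2, so opposite directions elsewhere are estimates that did not both pass.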

How the results depend on the processing

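Counting peaks in at least 1 Bcl11a list left 505 regions and 491 genes, and at least 3 lists 964 and 993. Lists of equal length (2605 peaks) left 386 regions and 399 genes, with 22.3% at a gene boundary and a PU.1-like word in 51.2% of windows. A distance of 3 kb put 34.6% of regions at a boundary, and a word within 50 bp of the summit was in 22.1% of windows. Leaving out 1 library gave 742 to 942 regions, and leaving out Bcl11a T1 replicates 2 and 3 together, added after seeing the data, 1097.

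The 258 genotype calls became 135 within T1, 159 within T2, 139 by fold enrichment and 166 with a replicate block, and 154 to 230 with 1 library left out; directions were kept in all 258 with the block and in 253 by fold enrichment, the Cd74 difference being -0.596 there. The 24 T calls became 13 within KO-iMOS, 0 by fold enrichment, 5 with a replicate block and 3 to 32 with 1 library left out. The 14 interaction calls became 0 by fold enrichment, 0 with a replicate block and 0 to 23 with 1 library left out. With the numbers of KO-iMOS T2 crossed in the block, added after seeing the data because same-numbered KO-iMOS libraries correlated at -0.12, 187, 3 and 0 regions passed. Crossing these numbers reverses the sign of that correlation by construction. Of the 258 genotype calls themselves, 120 also passed by fold enrichment and 158 with the replicate block. The causes of these changes were not tested. Replicate numbers are not stated to mark pairs. The word share around every summit was not run, since it needs genome sequence. Depth is unknown, which limits every presence call.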
